A study of Anas platyrhynchos x Cairina moschata with 137 samples.

Results

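Livers of mule duck embryos at embryonic day 12 (E12) were compared with livers of ducklings on day 4 after hatching (D4), the earliest and the latest sampling points of the kinetics. The comparison took the 19 animals labelled E12 and the 20 animals labelled D4, 39 animals in all beside 98 of the 5 stages in between, and covered the 50 of 50 target genes in the series. Mule ducks are hybrids of the common duck with the Muscovy duck. Microfluidic quantitative PCR gave the hepatic mRNA levels, and every animal is a separate liver sampled at a single stage. The E12 animals were embryos in the egg, under incubation. The D4 animals had hatched, and from day 2 they were kept in a rearing room cooler than the hatcher, with a starter diet offered ad libitum. Stage, feeding and housing therefore changed together between these groups and cannot be told apart.

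The liver of a bird embryo grows and differentiates while the embryo lives largely on the lipids of its yolk. After hatching the duckling changes to a diet rich in carbohydrates, and in birds the liver, more than adipose tissue, is the main site where fatty acids are made. The study chose its targets among genes of liver development, carbohydrate metabolism, lipid metabolism and stress. The 2 tables analysed here number these genes and do not pair the numbers with names. The study states that its deposited record also lists gene accessions, and that list was not used here, so the genes are described by their values and their place in the order of change, with no function given. For the same reason no marker of hepatocytes or other liver cells could be checked. The samples are whole liver, in which fewer cells of a type and less RNA per cell cannot be told apart.

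The threshold cycle (Ct) is the PCR cycle in which a product's fluorescence passes a set level, and 1 cycle earlier stands for about 2 times as much template. The relative expression sets the Ct of a gene against its mean over all animals and divides by the geometric mean of the same quantity for 5 references, so it compares stages within a gene and never the levels of different genes. Differences are given as D4 minus E12 between means of log2 values, where 1 unit is a factor of 2. A gene had 16 to 19 values at E12 and 15 to 20 on D4, and 28 of the 50 genes had a value in every animal. Of the values without a relative expression, 17 at E12 and 19 on D4 had a Ct nonetheless, and 2 at E12 and 12 on D4 had no Ct. Replicate 1 of E12 held 7 of those 17. Ct values carry no read depth, and the number of animals is among the limits on the precision.

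A total of 21 genes (42% of the genes tested) were higher on D4 and 21 (42%) were lower, by limma fitted over the 7 stages with Benjamini-Hochberg adjustment at a threshold of 0.05. The rises ran from 0.44 to 9.06 on the log2 scale with a median of 1.70, a factor of 3.24. The falls ran from -0.39 to -6.33 with a median of -2.10, a factor of 4.28. The standard errors lay between 0.10 and 0.74, with a median of 0.18. Rises of at least 1 were seen in 15 genes and falls of at least 1 in 16, and 7 and 11 genes respectively reached 2. The other 8 genes did not pass the threshold, with differences between -0.48 and 0.31 and 95% intervals that reached from -1.19 to 0.62. The smallest adjusted p among these 8 genes was 0.0626 by limma. These intervals and calls draw on the spread at all 7 stages. Fitted on E12 and D4 alone, limma called 22 genes higher and 22 lower, and a permutation test gave the same counts. Direction depended on the reference in the genes with smaller differences, as the 5 references did not keep the same Ct between the stages, and the split of 21 against 21 became 10 against 35 with the reference in row 53 alone and 32 against 12 with that in row 55 alone.

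**Figure D1:**
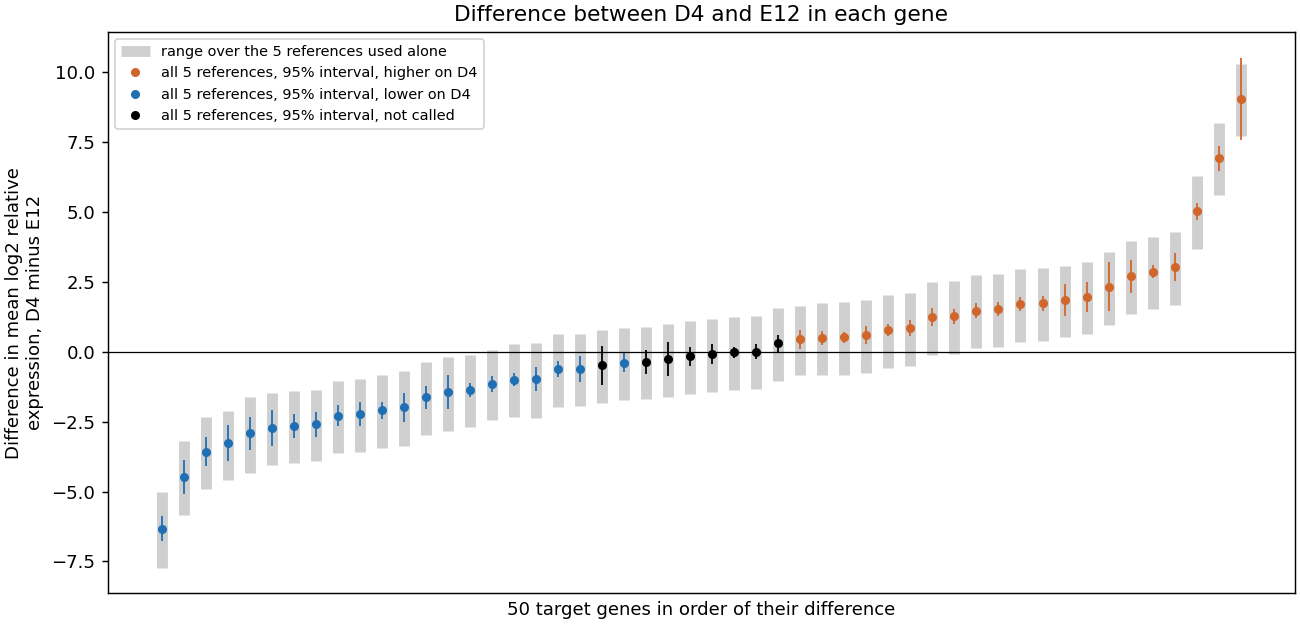
The difference in mean log2 relative expression, D4 minus E12, is plotted for the 50 target genes in order of size, as points with 95% intervals from limma, and grey bars span the values obtained with 1 reference at a time. The largest changes keep their sign over the whole grey bar, while in the 22 genes whose bars cross 0 the direction depends on the reference.

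The gene in row 47 showed the largest rise. Its relative expression at E12 had a lowest value of 0.0942, a median of 0.423 and a highest value of 1.38 (n = 17), and on D4 a lowest value of 79.0, a median of 289.7 and a highest value of 428.4 (n = 20). Every D4 animal lay above every E12 animal, with a gap of 5.84 on the log2 scale between the nearest animals. The mean log2 value rose by 9.06 ± 0.74 (SE), a factor of 532 (adjusted p = 3.05e-21, limma). On D4 the animals of this gene lay in 2 stretches, 7 between 79.0 and 125.2 and 13 between 223.7 and 428.4, with none between. This split was seen in the values and was not tested. Its gap of 0.84 on the log2 scale was close to the widest gap in row 46 on D4, 0.83, which set 1 animal apart from 18. At E12 the Ct ran from 19.5 to 24.4 with a median of 21.9, counting an animal that had no relative expression. The spread of the 17 kept values, an SD of 1.25 on the log2 scale, was wider than that of most genes. The part of the late Ct in this spread was not tested. Replicate 1 of E12 had a Ct but no relative expression, and the value computed from its Ct, 2.26, was above the kept values and still far below D4. Replicate 7 of E12 had no Ct. Between the stages compared the gene did not climb steadily, since its mean log2 value was lowest on D1, at -4.61, a mean of 10 of the 19 animals. The SD there was 3.43, the median -3.45 and the lowest value -11.8. At E24 the mean was -3.37 with an SD of 2.90 (12 of 19 animals). At E28 it was -3.21 with an SD of 3.45 (10 of 20 animals). Differences between these stages were not tested.

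The gene in row 17 rose next most. At E12 its relative expression had a lowest value of 0.131, a median of 0.385 and a highest value of 0.688 (n = 18), and on D4 a lowest value of 17.4, a median of 44.6 and a highest value of 76.9 (n = 20). The stages did not overlap and the nearest animals were 4.66 apart on the log2 scale. The rise was 6.93 ± 0.23 (SE), a factor of 122 (adjusted p = 9.25e-59, limma). Unlike the gene in row 47, whose mean on D1 was below that at E12, this gene had passed its E12 level by D1, where its mean log2 value was 1.11 against -1.52 at E12. The value computed from the Ct of replicate 5 of E12, which has no relative expression, was 0.966, above the kept E12 values and far below D4.

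The largest fall was that of the gene in row 46. At E12 its relative expression had a lowest value of 6.21, a median of 8.74 and a highest value of 13.3 (n = 19), and on D4 a lowest value of 0.0290, a median of 0.124 and a highest value of 0.269 (n = 19). Every E12 animal lay above every D4 animal. The difference was -6.33 ± 0.23 (SE), a factor of 80.3 (adjusted p = 9.71e-56, limma). The mean log2 value was lower at each later stage than at the one before it, at 3.14, 2.01, 1.48, 0.22 and -1.01 from E12 to E28, then -2.90 on D1 and -3.19 on D4. The change was thus spread over the whole period, and only a small share of it lay after D1. Replicate 5 of D4 had a Ct but no relative expression for this gene. Its computed value was 0.467, above the kept D4 values and far below the E12 animals.

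The gene in row 31 fell next most. Its relative expression at E12 had a lowest value of 2.16, a median of 3.90 and a highest value of 6.28 (n = 19), and on D4 a lowest value of 0.0344, a median of 0.183 and a highest value of 0.698 (n = 18). The stages did not overlap, and the D4 animals were spread over a far wider range of folds than the E12 animals. The difference was -4.48 ± 0.30 (SE), a factor of 22.4 (adjusted p = 3.49e-28, limma). Its mean log2 value was 1.93 at E12, 1.00 at E20, -0.35 at E28, -2.48 on D1 and -2.56 on D4. The values computed for replicates 14 and 17 of D4, which have a Ct only, were 0.894 and 0.787, both still below the E12 animals.

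**Figure D2:**
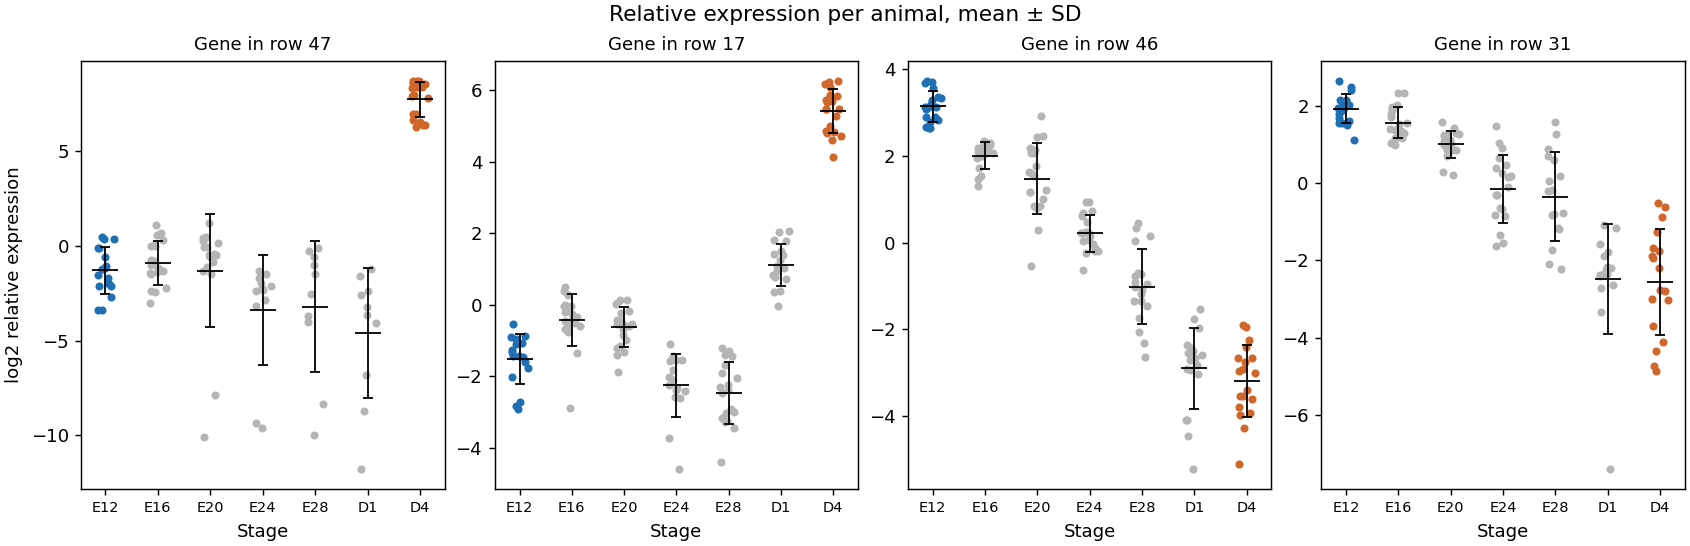
Log2 relative expression is plotted for each animal at the 7 stages for the 2 genes that rose most (rows 47 and 17) and the 2 that fell most (rows 46 and 31), with horizontal lines for the stage mean and bars of 1 SD, E12 in blue, D4 in orange and the stages between in grey. In all 4 panels the E12 and D4 animals do not overlap. The mean of row 46 steps down at every stage, while row 47 has its lowest mean on D1, with a wide SD.

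Below these extremes the changes became smaller quickly on the rising side. The third largest rise went from a median of 0.508 at E12, with values between 0.335 and 0.874 (n = 19), to a median of 17.6 on D4, with values between 7.13 and 26.7 (n = 20), without overlap. It measured 5.02 ± 0.15 (SE), a factor of 32.5 (adjusted p = 3.25e-64, limma). The fourth largest rise was 3.04, with E12 values between 0.0755 and 1.502 and D4 values between 0.815 and 8.31, which overlapped. The fifth, at 2.86, was smaller and did not overlap, with 0.366 to 0.773 at E12 against 2.23 to 5.37 on D4.

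The falls had a more even order. The third largest fall, -3.57, took a gene from a median of 3.18 at E12 to 0.318 on D4, with all 20 D4 values at or below 0.444 and all 19 E12 values at or above 1.74. The fourth, -3.27, overlapped between stages, with 0.386 to 2.28 at E12 and 0.0430 to 0.442 on D4 in the 15 D4 animals that had a value. The ninth, -2.28, belonged to the gene with the smallest SD at E12 among the 17 without overlap, 0.176 on the log2 scale, with values from 1.96 to 2.96 there and from 0.0811 to 1.30 on D4.

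Without a model, and with all 5 references, every D4 animal lay above every E12 animal in 6 genes (12% of the genes tested) and below every E12 animal in 11 genes (22%). These counts take only the animals that had a relative expression for the gene. The other 15 genes that rose and 10 that fell overlapped in at least 1 pair of animals. A large change and a clean separation were not the same thing. The smallest rise without overlap was 1.70 and the largest rise with overlap was 3.04, and on the falling side these values were -1.63 and -3.27. The number of genes without overlap fell from 17 to 7 with the reference in row 54 alone, and to 16 when the missing values were restored from Ct. The split into D4 above and D4 below also depended on the reference. With 1 reference at a time it was 6 and 7 (row 51), 5 and 13 (row 52) and 3 and 18 (row 53). With row 54 it was 4 and 3, and with row 55 it was 12 and 3.

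The stages in between show where the level was lost or gained, as a description of genes already chosen by their difference between E12 and D4. In the 21 genes higher on D4 the median of the stage means stayed between -0.89 and -0.04 from E12 to D1 and was 1.498 on D4. Single genes of this group differed from the median, with means on D1 that ran from -4.61 to 2.64. The highest of these belonged to the third largest rise, which had stood at -1.01 at E12, so part of its gain lay before D4. In the 21 genes lower on D4 it was 1.02 at E12, 1.00 at E16 and 1.05 at E20, then -0.06 at E24, -0.74 at E28 and -2.10 on D1, and it was -1.21 on D4. The falling group was thus lower on D1 than on D4 by this median. Single genes of it went the other way, among them those in rows 46 and 31 with the largest falls, whose means were lower on D4.

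The 5 references were measured in every animal. The reference in row 51 had a mean Ct of 14.4 ± 0.40 (SD, n = 19) at E12 and 14.5 ± 0.83 (SD, n = 20) on D4, a difference of 0.10 cycles, and that in row 52 differed by -0.02 cycles, from 15.2 ± 0.38 (SD) to 15.1 ± 0.64 (SD). Neither passed a 2-sided permutation test with 100000 resamples, adjusted over the 5 references (adjusted p = 0.802 and 0.925). The reference in row 53 came earlier on D4, at 12.8 ± 0.85 (SD) against 13.8 ± 0.53 (SD), a difference of -0.98 cycles (permutation test, adjusted p = 0.000183). The reference in row 54 came later, at 11.3 ± 0.52 (SD) against 10.2 ± 0.21 (SD), with 19 of 20 D4 animals later than every E12 animal. The reference in row 55 also came later, at 18.99 ± 0.56 (SD) against 17.4 ± 0.39 (SD), with 18 of 20 D4 animals later than every E12 animal. These differences were 1.09 and 1.62 cycles (permutation test, adjusted p = 2.5e-05 for each, from the smallest p of 1e-05 that the resamples can give). One of the references is an exogenous luciferase RNA added at reverse transcription according to the study's methods, and the tables do not say which row it is.

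**Figure D3:**
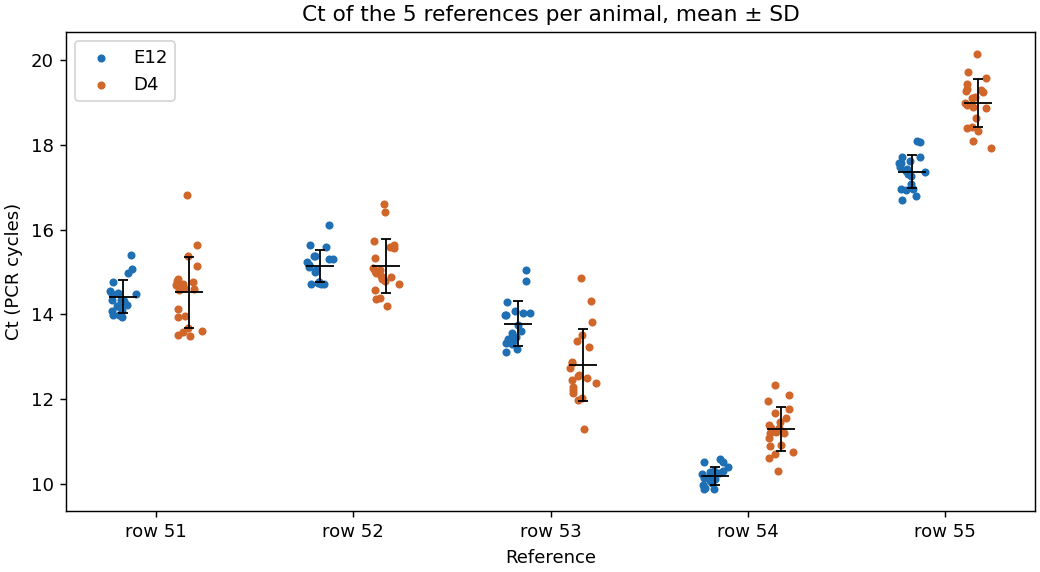
Ct in PCR cycles is plotted for each of the 5 references in each animal, E12 in blue and D4 in orange, with horizontal lines for the mean and bars of 1 SD. Rows 51 and 52 have nearly the same mean in both stages, with a larger SD on D4, row 53 lies lower on D4, and rows 54 and 55 lie higher on D4.

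The mean Ct of the 5 references was 14.2 ± 0.33 (SD, n = 19) at E12 and 14.5 ± 0.54 (SD, n = 20) on D4, 0.36 cycles later (permutation test, p = 0.0170). Between single references the shift ranged over 2.60 cycles, a factor of 6.06. The largest changes whose sign turned with at least 1 single reference were a rise of 1.27 and a fall of -1.15. The median difference of the 50 genes was -0.12 with all 5 references. With 1 reference at a time it was -0.38 (row 51), -0.50 (row 52), -1.47 (row 53), 0.61 (row 54) and 1.13 (row 55). The calls by limma were 19 higher and 25 lower with row 51, 17 and 27 with row 52, and 26 and 15 with row 54, beside the splits with rows 53 and 55 given above. With row 53 alone 6 genes that were called higher with all 5 references were called lower, and with row 55 alone 3 genes went the other way.

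The sign of the difference was the same with each reference in 28 genes, 13 higher and 15 lower on D4, and it was mixed in 22. Among the mixed genes were 8 of the 21 called higher and 6 of the 21 called lower with all 5 references. By limma with each reference in turn, 10 genes were called higher every time and 12 lower every time. The smallest change among them was a rise of 1.70 and a fall of -1.99 with all 5 references. In 17 genes at least 1 reference gave a call in each direction.

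The genes that changed most kept their direction with every reference. A change of reference shifts every gene by nearly the same amount, and between references this shift ranged over 2.60 cycles. The 4 changes named here were larger than that and were chosen for their size. Their unchanged direction was thus fixed in advance and is no further evidence. The rise of the gene in row 47 lay between 7.72 and 10.29 on the log2 scale, and that in row 17 between 5.60 and 8.20. The falls lay between -7.73 and -5.03 for row 46 and between -5.85 and -3.19 for row 31. Against the median gene, a scale on which the choice of reference nearly drops out, row 47 rose by 9.18, with 9.16 to 9.18 over the 5 references, and row 17 by 7.05, with 7.03 to 7.07. On the same scale row 46 stood at -6.21, with -6.28 to -6.10, and row 31 at -4.36, with -4.39 to -4.32. The extreme pair can also be set against each other within an animal, with no reference at all, which shows their change and not which of them is more abundant. The Ct of row 46 minus that of row 47 was between -11.4 and -6.14 cycles at E12, with a median of -9.37 (n = 18), and between 4.52 and 7.61 cycles on D4, with a median of 6.50 (n = 20). Its mean moved by 15.2 cycles. All Ct were used here, also those without a relative expression. These were the Ct of row 47 in replicate 1 of E12 and of row 46 in replicate 5 of D4. The separation of the stages on this measure follows from the choice of these genes as the extremes in the same animals, so it is no further evidence of their change.

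The SD among animals was larger on D4 in 41 of the 50 genes, with a median of 0.346 on the log2 scale at E12 and 0.616 on D4. A 2-sided permutation test of the absolute deviation from the stage median, adjusted over the 50 genes, called 21 genes (42%) wider on D4 and 1 gene (2%) wider at E12. Of the 21, 14 were among the genes lower on D4, 4 among those higher and 3 among the 8 not called. The median ratio of the SD on D4 to that at E12 was 2.11 in the lower genes and 1.35 in the higher genes. The count of 21 fell to 6 on Ct without any reference, to 7 with row 53 alone and to 12 with row 55 alone, and it stayed at 21 when the mean of the target genes of each animal took the place of the references. Among the references themselves, row 54 was wider on D4 (permutation test, adjusted p = 0.0271), and the adjusted p of the others lay between 0.0596 and 0.228.

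On the log2 scale the gene in row 31 was wider on D4 by a factor of 3.67 in SD (permutation test, adjusted p = 0.00025). That in row 46 was wider on D4 by a factor of 2.30 (adjusted p = 0.0108, permutation test). Those in rows 47 and 17 were not called in either direction. On the linear scale the order was reversed for rows 31 and 46. The SD of relative expression in row 31 was 1.02 at E12 and 0.207 on D4. In row 46 it was 2.33 at E12 and 0.0680 on D4. For rows 47 and 17 the linear SD was larger on D4. Genes with a wider spread on D4 also came later in the PCR, with a median of their mean Ct on D4 of 17.5 cycles against 14.2 in the other 29 genes. The genes lower on D4 had a median of 18.9 cycles there and those higher 13.5. The part of the late Ct in the spread was not tested.

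The gene with the wider spread at E12 was the one with the seventh largest rise, singled out after its values were seen. Its relative expression at E12 ran from 0.0356 to 5.72 with a median of 0.462 (n = 17), and on D4 from 1.08 to 7.30 with a median of 2.85 (n = 18). Of the E12 animals, 7 of 17 lay above the lowest D4 animal, and the SD was 2.60 at E12 against 0.927 on D4 (permutation test, adjusted p = 0.00075). Its difference of 2.32 ± 0.44 (SE) passed the threshold. That SE takes 1 common spread for all 7 stages, so it does not carry the wider spread at E12. The Ct of the E12 animals ran from 13.1 to 22.96 cycles, counting 2 animals that had a Ct but no relative expression.

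**Figure D4:**
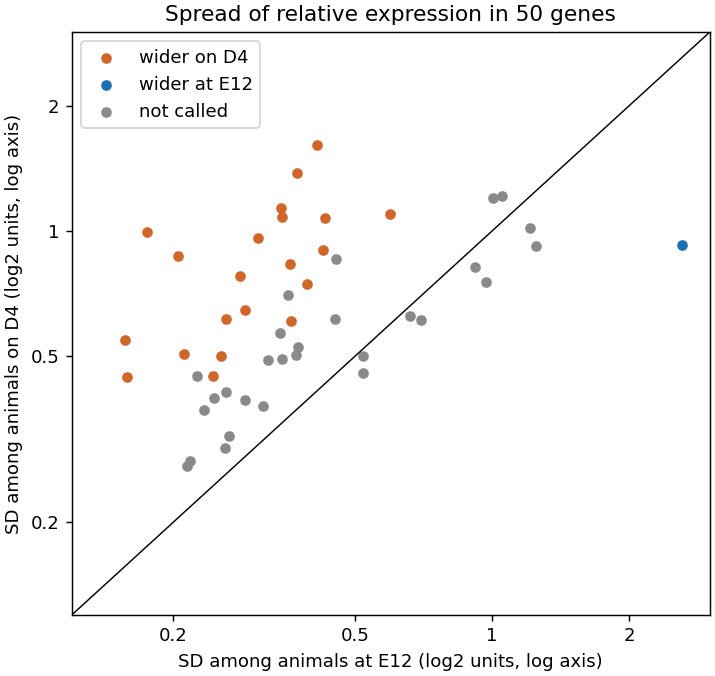
The SD among animals of log2 relative expression on D4 is plotted against that at E12 for the 50 target genes, on log axes with a line of equality, and colour marks the genes called by the permutation test. The points of 41 genes lie above the line, 21 of them called, and 1 called gene lies far below it at an SD of 2.60 at E12.

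The position of single animals is given as a description, since the 31 genes used for it were taken for a difference of at least 1 between these same animals, which keeps the counts low. The number of genes in which an animal lay nearer to the mean of the other stage was 0 to 2 among the E12 animals, with a median of 1, and 0 to 8 among the D4 animals, with a median of 2. The count of 8, out of 28 genes with a value, belonged to replicate 5 of D4, and the other D4 animals reached at most 3. The same animal had the latest mean reference Ct on D4, 15.5 cycles, and the part of its references in its position was not tested. Without this animal and replicate 16 of E12, whose reference Ct lay farthest from the mean of its stage, the counts by limma were again 21 higher and 21 lower, and the genes without overlap numbered 22 instead of 17.

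Among the animals of 1 stage, the relative expression of the 4 genes above was set against the mean reference Ct, giving 8 relations over 17 to 20 animals each. None passed the threshold after adjustment over the 8, although both measures share the reference Ct. The strongest was row 46 on D4, with a Pearson r of 0.43 (permutation test, p = 0.0670, adjusted p = 0.536) and a Spearman rho of 0.42 (permutation test, p = 0.0728, adjusted p = 0.582). Its r was 0.47 when the 2 animals with the most extreme reference Ct were left out.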

How the data were processed

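The authors read Ct with the Fluidigm software, removed Ct values with aberrant melting curves, and deposited 2 tables, the Ct of 55 numbered rows and the relative expression of 50 targets, a linear ratio. The deposited ratio equals 2 to the power of the mean Ct over all animals minus Ct, divided by the geometric mean of the same for the 5 rows without a ratio, within 0.00283 on the log2 scale, so an efficiency of 2 was used for every gene. Columns were mapped to animals by name, and stages came from the sample labels. No 2 columns were identical. Which array an animal was run on is not stated in the labels or methods.

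Log2 ratios, with no pseudocount and no imputation, were fitted with limma 3.58.1 in R 4.3.3 over the 7 stages, contrast D4 minus E12, with empirical Bayes moderation and Benjamini-Hochberg adjustment over the 50 genes at 0.05. Each standard error therefore draws on the spread of its gene at all 7 stages and takes that spread as equal between them. In genes whose spread differed between E12 and D4 it does not describe these 2 stages alone. Overlap, spread and reference Ct were compared on E12 and D4 alone, the spread and the references by 2-sided permutation tests with 100000 resamples, in Python 3.11.15 with numpy 2.4.6, pandas 2.3.3, scipy 1.17.1 and matplotlib 3.10.9. The limma and permutation steps were tested on simulated data with independent genes and no shift of the references. That check does not cover the choice of reference. The text names the 2 genes with the largest rise and the 2 with the largest fall among those past the threshold. The comparison, this rule and the tests were chosen with earlier results of these data known. Alternatives were other references, restored or floored missing values, an efficiency of 1.9, other tests, a replicate block, other summaries and scales, and the removal of extreme animals. Primer sequences and gene names were not used, since the 2 tables analysed here do not pair them with row numbers, and the list of gene accessions that the study says it deposited was not at hand.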

Additional observations from a re-analysis of the deposited data

How the results depend on the processing

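The references decided most of what moved. With row 53 alone 10 genes were higher and 35 lower, the median difference was -1.47 and 7 genes were wider on D4. With row 54 alone the median difference was 0.61 and 7 genes did not overlap. With row 55 alone 32 genes were higher and 12 lower, the median was 1.13 and 12 genes were wider on D4. Without any reference 6 genes were wider on D4. On the linear scale 10 genes were wider at E12 instead of 1, and the cause was not tested. Elsewhere the counts stayed within 1.5 times those reported, at 15 to 26 genes higher and 15 to 27 lower, 13 to 22 without overlap and 17 to 24 wider on D4, and the median difference lay between -0.50 and 0.22. The methods' own procedure, with Bonferroni or Dunn comparisons, shared 17 of the 21 higher and 18 of the 21 lower calls on linear values, and 18 of each on log2 values. The 4 named genes kept their direction and their call under all 18 alternatives tried for each, which their choice as the largest changes made likely. Each animal was sampled at a single stage, so no animal is paired with itself. The deviations of same-numbered animals had a mean correlation of 0.03, with 7 of 19 over 0.1 and 0 that correlated best with their own number. With the replicate number as a block 21 genes were higher and 21 lower. The labels give no factor shared by same-numbered animals, so this correlation and this block say nothing about a batch. The numbers in the column names differ from these replicate numbers and were not checked.

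Missing values left as few as 15 animals for a gene and stage. In each named gene the values restored from Ct lay beyond the kept range, on the side of the other stage. The separation of the stages in these genes was thus narrower with the restored values than with the kept values. The array of each animal, and which reference is the added RNA, are not known here.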
